A study of Mus musculus with 12 samples.

Results

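Abca1, Abcg1, Apoe, Nr1h3, Mylip, Ch25h, Gpr183 and Soat1, 8 genes of cholesterol efflux and of oxysterol signalling, were followed in macrophages (Mφ) sorted from mouse hearts, by matching these symbols among the 24445 gene symbols of the count files. Adult male C57BL6/J mice carried a pump that delivered isoproterenol, which stimulates β-adrenergic receptors, at a dose of 30 mg/kg/day. Infusion lasted 14 days in the early concentric hypertrophy (ECH) group and 28 days in the heart failure (HF) group. Control (Ct) mice received saline from the pump, and the sources used here do not give how long each Ct mouse was infused. Live CD14+/CD64+ cells were sorted after enrichment for CD45, and their RNA was amplified with the SMART-Seq v4 kit, which gave 4 libraries in each of the 3 groups. The 8 genes had been chosen by their counts in these same groups, with those levels in view. Their differences between groups are therefore a description, and the adjusted p values printed with them carry no independent weight.

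Mφ that take up lipoproteins or dying cells must dispose of the cholesterol they carry. Free cholesterol is either esterified for storage in droplets by the acyltransferase that Soat1 encodes, or exported by the transporters ABCA1 and ABCG1 to acceptors such as apolipoprotein E (Apoe). Oxidised sterols (oxysterols) activate the nuclear receptor LXRα, encoded by Nr1h3, which induces both transporter genes, Apoe and Mylip, whose product is a ubiquitin ligase that directs the LDL receptor to degradation. The oxysterol 25-hydroxycholesterol is made by the enzyme of Ch25h. Its further product 7α,25-dihydroxycholesterol is the ligand of GPR183, a receptor that guides the migration of immune cells.

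The libraries held between 88466559 and 111180291 counts, and all 8 genes were among the 14608 genes tested. The fewest genes were detected in HF library 1 (13600) and Ct library 2 (14489). In these, 188 and 127 genes were at 0 though amply counted in every other library of the group, against 1 to 7 such genes elsewhere. For genes at 0 in these libraries, absence and failed detection cannot be told apart. Values are given as counts relative to library size (CPM) scaled by edgeR's TMM method. Summed over 8 Mφ marker genes (Cd14, Fcgr1 for CD64 and Itgam for CD11b of the sort, with Csf1r, Adgre1, Cd68, Mertk and Lyz2, the last of which makes up most of the sum), the level was 22289 to 24516 CPM in Ct, 21916 to 32138 CPM in ECH and 23542 to 31057 CPM in HF libraries, and no marker was at 0 in any library. From running numbers in the sample labels, a set A (all Ct libraries with ECH libraries 1 and 2) and a set B (all HF libraries with ECH libraries 3 and 4) were inferred. No source states that these sets were handled apart, and since all Ct libraries are in set A and all HF libraries in set B, set and group cannot be told apart between Ct and HF. ECH libraries 3 and 4 also share the first part of the code in their titles, as do Ct libraries 1 and 2, Ct libraries 3 and 4, and HF libraries 1 and 2. What that code stands for is not stated, and the fits count these libraries as independent. The ECH libraries 3 and 4 stood apart from the ECH libraries 1 and 2 in several of the genes below. Differences of single genes that rest on them are given with and without them.

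None of the 8 genes was called in any comparison, a call being a fold change of at least 2 with an FDR under 0.05 by edgeR's quasi-likelihood test adjusted over all genes tested. The share of all genes called was 0.356% for ECH against Ct, 0.377% for HF against Ct and 0% for HF against ECH. DESeq2, the likelihood ratio test of edgeR and limma-voom also called 0 of the 8 in each comparison. Without the minimum fold, 1 of the 8 (Soat1) passed in ECH against Ct, where 0.472% of all genes did. In HF against Ct it was 0 of 8 beside 0.513%, and in HF against ECH 0 of 8 beside 0%. An unadjusted p under 0.05 was reached by 2 of the 8 (Nr1h3 and Soat1) in ECH against Ct, beside 11.9% of all genes. The same genes reached it in HF against Ct, beside 16.1%, and 0 of 8 did in HF against ECH, beside 7.98%. The groups did not overlap for 1 gene (Soat1) in ECH against Ct, beside 7.97% of all genes. They did not overlap for Soat1 and Ch25h in HF against Ct, beside 9.04%, and for 0 of 8 in HF against ECH, beside 6.92%. The median log2 fold change of the 8 genes was 0.06, −0.09 and −0.24 in the order given, against 0.01, −0.01 and −0.02 for all genes tested. The comparisons share libraries, the Ct libraries serving in both comparisons with Ct and the ECH and HF libraries in 2 comparisons each.

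**Figure D1:**
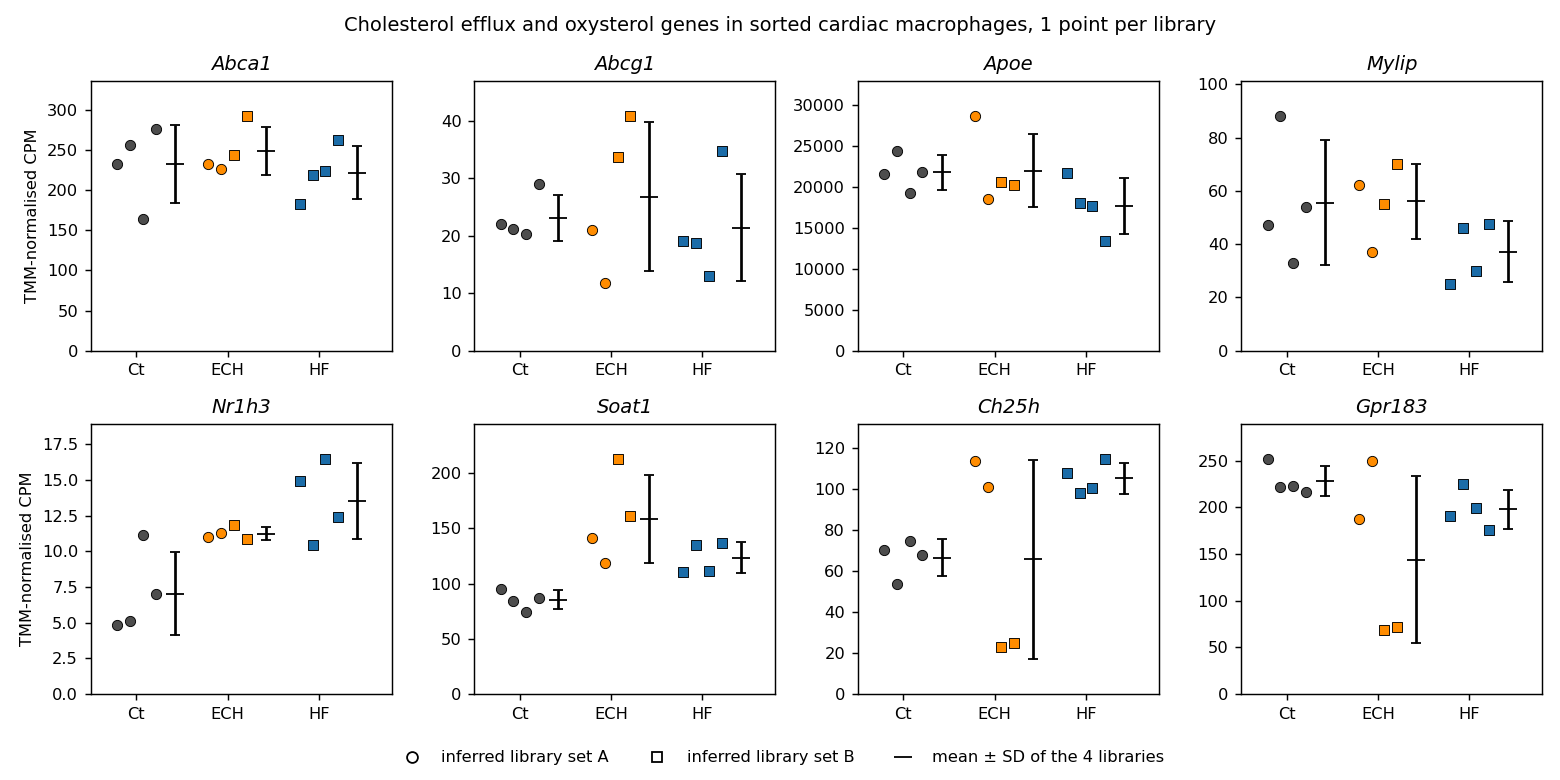
TMM-normalised CPM of the 8 genes (vertical axes, linear and starting at 0) in each library of the Ct, ECH and HF groups (horizontal axes), with the mean ± SD of the 4 libraries of a group beside its points. Circles and squares mark the inferred library sets A and B. The ECH squares of Ch25h (22.9 and 24.8 CPM) and Gpr183 (68.5 and 71.5 CPM) lie below all other libraries, and all ECH and HF points of Soat1 lie above the Ct points.

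The exporter gene Abca1 (ENSMUSG00000015243; GRCm38 chromosome 4, 53030787 to 53159895, minus strand) stood at similar levels in the 3 groups. Abca1 was at 233, 256, 164 and 276 CPM in Ct libraries 1 to 4. In ECH it was at 233, 226, 243 and 292 CPM, and in HF at 182, 218, 224 and 262 CPM. The groups overlapped throughout, Ct library 3 being the lowest and ECH library 4 the highest of all libraries. The means were 232 ± 48.8 (SD, n = 4), 248.5 ± 29.7 and 222 ± 32.9 CPM in Ct, ECH and HF. The log2 fold change of Abca1 was 0.10 (SE 0.17) for ECH against Ct, −0.07 (SE 0.17) for HF against Ct and −0.17 (SE 0.17) for HF against ECH, each within the spread between libraries. In bulk RNA, fewer cells that express a gene and less RNA per cell cannot be told apart, for this and for every gene below.

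Abca1 is the textbook LXR target of the set, and the 250 bases before its transcription start are shown for the promoter motifs they hold. The sequence is from RefSeq (build GRCm38.p6, chr4:53159896-53160145, minus strand, written 5′ to 3′ along the gene). Capitals mark both copies of GGGCGG (GC box), a site that matches a direct repeat of AGGTCA with a spacer of 4 bases (the LXR response element) on the opposite strand, and TATAAA.
Abca1: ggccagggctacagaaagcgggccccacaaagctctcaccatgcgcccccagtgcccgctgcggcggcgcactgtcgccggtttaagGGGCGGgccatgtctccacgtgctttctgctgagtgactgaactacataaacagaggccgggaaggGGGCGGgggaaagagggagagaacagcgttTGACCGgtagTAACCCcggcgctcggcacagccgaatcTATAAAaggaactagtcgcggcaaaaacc
The direct repeat begins 67 bases before the start and matches 9 of the 12 half-site bases, its spacer bases being in lower case. Sites with at most 3 mismatches were present in 21.9% of the 32851 promoter windows in the table, and sites without a mismatch in 0.0152%. GGGCGG was in 35.7% of all windows and TATAAA in 13.6%. These matches, searched on both strands, are a description of the letters and not of binding. Promoter windows matched 7 of the 8 genes, all but Abcg1, and none of the 10 windows of these genes other than that of Abca1 held a direct repeat with at most 3 mismatches.

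Abcg1 (ENSMUSG00000024030; chromosome 17, 31057675 to 31117988, plus strand), which encodes the exporter that loads cholesterol onto HDL particles, varied most within the ECH group. Abcg1 was at 22.0, 21.1, 20.3 and 29.0 CPM in Ct libraries, at 20.995, 11.7, 33.7 and 40.8 CPM in ECH libraries 1 to 4, and at 19.1, 18.8, 12.97 and 34.7 CPM in HF libraries. The highest and the lowest value of all were both in ECH, and the groups overlapped. Means were 23.1 ± 4.01, 26.8 ± 12.98 and 21.4 ± 9.32 CPM (SD, n = 4). On the log2 scale the difference was 0.21 (SE 0.36) for ECH against Ct, −0.11 (SE 0.36) for HF against Ct and −0.32 (SE 0.36) for HF against ECH. The direction against Ct depended on the ECH libraries 3 and 4, since without them it was −0.51 (SE 0.38) for ECH against Ct and 0.40 (SE 0.38) for HF against ECH. With the library set as a covariate, Abcg1 in HF against Ct moved to −1.30 (SE 0.50, edgeR FDR 0.229), and within set B HF against ECH was −0.80 (SE 0.36, edgeR FDR 0.257).

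Apoe (ENSMUSG00000002985; chromosome 7, 19696109 to 19699188, minus strand) held more counts than any other gene, ranking 1 by mean count, and took 1.37% to 2.6996% of the counts of a library. Apoe was at 21614, 24439.5, 19299 and 21883 CPM in Ct, at 28688, 18580, 20656 and 20249 CPM in ECH, and at 21763, 18082, 17729.8 and 13414 CPM in HF libraries. Of the HF libraries 3 lay below every Ct and ECH library, and HF library 1 lay among them. The log2 fold change of Apoe was 0.02 (SE 0.17) for ECH against Ct, −0.30 (SE 0.17) for HF against Ct and −0.31 (SE 0.17) for HF against ECH, none past the test (edgeR FDR 0.988, 0.426 and 0.694).

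Mylip (ENSMUSG00000038175; chromosome 13, 45389742 to 45412022, plus strand), the LXR-induced ligase gene, was at 47.3, 88.1, 33.1 and 54.1 CPM in Ct, at 62.1, 36.9, 55.1 and 70.2 CPM in ECH and at 24.9, 46.3, 29.9 and 47.7 CPM in HF libraries. The lowest values were in HF libraries 1 and 3, but all groups overlapped. Means were 55.6 ± 23.3, 56.1 ± 14.2 and 37.2 ± 11.5 CPM (SD, n = 4). Its log2 fold change was −0.58 (SE 0.30) for HF against Ct and −0.59 (SE 0.30) for HF against ECH (edgeR FDR 0.371 and 0.653). For ECH against Ct it was 0.01 (SE 0.30). Without Ct library 2, the highest of all, the value for HF against Ct was −0.27 (edgeR FDR 0.689). Over the alternatives the value for HF against Ct lay between −0.92 and −0.13, and that for HF against ECH between −0.75 and −0.41.

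The receptor gene Nr1h3 (ENSMUSG00000002108; chromosome 2, 91184061 to 91202834, minus strand) was among the 8 genes the one with the largest log2 fold change between HF and Ct. Nr1h3 was at 4.83, 5.14, 11.2 and 6.98 CPM in Ct, at 10.98, 11.3, 11.8 and 10.9 CPM in ECH, and at 14.9, 10.4, 16.4 and 12.4 CPM in HF libraries. Ct libraries 1, 2 and 4 lay below all ECH and HF libraries, whereas Ct library 3 lay among them. Means were 7.03 ± 2.91, 11.2 ± 0.434 and 13.5 ± 2.66 CPM (SD, n = 4), or 688, 1212 and 1460 counts per library. Log2 fold changes were 0.68 (SE 0.28) for ECH against Ct, 0.95 (SE 0.28) for HF against Ct and 0.27 (SE 0.28) for HF against ECH, and none passed (edgeR FDR 0.357, 0.145 and 0.893). Without Ct library 3 the value for HF against Ct was 1.26, with an edgeR FDR of 0.0331, and DESeq2 gave an adjusted p of 0.0297 with all libraries. The range of adjusted p over the alternatives for HF against Ct was 0.0297 to 0.414. In all alternatives the direction was the same for both comparisons with Ct. Nr1h3 shares 34 exonic bases with the transcript Gm13783 on the same strand, a symbol not among those counted.

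Marker levels of other cell types differed between the groups too. The summed level of the 4 Ly6C-high monocyte markers was 237 to 543 CPM in Ct, with the highest value in Ct library 3, 491 to 669 CPM in ECH and 516 to 877 CPM in HF libraries. Ccr2 made up most of that sum in every library. Plac8 was instead at 7.36 to 20.8 CPM in Ct, 1.84 to 10.9 CPM in ECH and 1.52 to 11.8 CPM in HF. Ly6c2 was at 4.08 to 12.5, 15.5 to 23.5 and 5.09 to 17.2 CPM in Ct, ECH and HF. Chil3 was at 23.6 to 52.8, 54.1 to 185 and 22.7 to 134 CPM. None of the 4 was at 0, and 2 of 4 reached an unadjusted p under 0.05 upwards in ECH against Ct and 1 of 4 in HF against Ct, with 0 past the FDR. The summed level of the 5 B cell markers was 96.6 to 446 CPM in Ct, 34.3 to 79.8 CPM in ECH and 50.1 to 74.6 CPM in HF libraries. For the 6 T and NK cell markers it was 14.1 to 86.1, 3.01 to 26.2 and 8.10 to 17.995 CPM. Downwards, 4 of 5 B cell markers reached an unadjusted p under 0.05 in each comparison with Ct, with 1 of them past the FDR, and of the T and NK cell markers 4 of 6 did in ECH and 2 of 6 in HF, with 0 past the FDR. The B cell gene Pax5 was at 0 in ECH library 4 and HF libraries 1 and 2, and the NK cell gene Ncr1 in ECH libraries 3 and 4 and HF library 1. The 5 neutrophil markers, none at 0 in any library, summed to 209.5 to 1455 CPM in Ct, 92.3 to 449 CPM in ECH and 67.1 to 1088 CPM in HF, with 2 of 5 and 1 of 5 lower at an unadjusted p under 0.05 against Ct. Of the 7 genes known to be induced by tissue dissociation (Fos, Jun and others), 6 in ECH and 5 in HF were lower than in Ct at an unadjusted p under 0.05 and 0 passed the FDR, with median log2 fold changes of −0.68 and −0.74. Of the 4 resident Mφ markers, 1 was higher and 2 were lower at an unadjusted p under 0.05 in ECH against Ct, with 1 past the FDR, and 1 was lower in HF against Ct. Among them Timd4 was at 33.6 to 100.5 CPM in the isoproterenol libraries and at 111.6 to 227 CPM in Ct, without overlap. The 5 fibroblast markers summed to 25.9 to 173 CPM in Ct, 76.0 to 389 CPM in ECH and 75.8 to 221 CPM in HF, with 0 of 5 at an unadjusted p under 0.05 in either comparison with Ct and Pdgfra at 0 in Ct library 1 and HF library 1. The part of these markers in the differences of Nr1h3 and Soat1 was not tested.

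Soat1 (ENSMUSG00000026600; chromosome 1, 156424525 to 156474331, minus strand), which encodes the enzyme that esterifies cholesterol for storage, was higher in every isoproterenol library than in every Ct library. Soat1 was at 95.02, 84.2, 74.4 and 87.3 CPM in Ct libraries 1 to 4. In ECH libraries 1 to 4 it was at 142, 118, 212 and 161 CPM, and in HF libraries at 111, 135, 111 and 137 CPM. ECH libraries 3 and 4 held the highest values of all, and the ECH and HF groups overlapped. Means were 85.2 ± 8.53 in Ct, 158 ± 40.1 in ECH and 123 ± 14.3 CPM in HF (SD, n = 4). The log2 fold change was 0.89 (SE 0.17) for ECH against Ct, a 1.86-fold difference with an edgeR FDR of 0.0359, so that it passed the FDR but not the minimum fold. For HF against Ct it was 0.53 (SE 0.17), with an edgeR FDR of 0.171, and for HF against ECH −0.36 (SE 0.17), with an edgeR FDR of 0.630.

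The FDR of Soat1 in ECH against Ct depended on the settings, while its direction was the same in 24 of 24 alternatives. It was under 0.05 in 6 of the 24 and over it in 18, with a range of 0.000162 to 0.777. Leaving out 1 library at a time gave log2 fold changes between 0.72 and 1.01 and an edgeR FDR between 0.0214 and 0.127, under 0.05 only without ECH library 2, where the gene was also called. Without ECH libraries 3 and 4 the value was 0.60 (SE 0.16), with an edgeR FDR of 0.382, and HF against ECH was −0.06 (SE 0.16). With the library set as a covariate it was 0.61 for ECH against Ct (edgeR FDR 0.270) and 0.01 for HF against Ct (edgeR FDR 0.990). In that fit the difference between the sets is estimated from the 4 ECH libraries alone.

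Ratios of Soat1 to other genes within a library do not depend on scaling. Soat1 over Abca1 was 0.408, 0.329, 0.453 and 0.316 in Ct libraries. It was 0.608, 0.523, 0.873 and 0.553 in ECH and 0.609, 0.619, 0.497 and 0.521 in HF libraries, so that every isoproterenol library lay above every Ct library, for a denominator whose own level was similar in the 3 groups. With the other exporter as denominator the groups overlapped, Soat1 over Abcg1 being 4.32, 3.99, 3.67 and 3.01 in Ct, 6.74, 10.1, 6.31 and 3.95 in ECH, and 5.81, 7.18, 8.59 and 3.93 in HF libraries. The ratio of Soat1 to Nceh1, which encodes a hydrolase of cholesterol esters, was 0.981, 0.843, 1.32 and 1.03 in Ct, 1.16, 0.970, 1.32 and 0.995 in ECH, and 1.58, 1.07, 1.12 and 1.17 in HF libraries. These ratios overlapped between the groups.

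**Figure D2:**
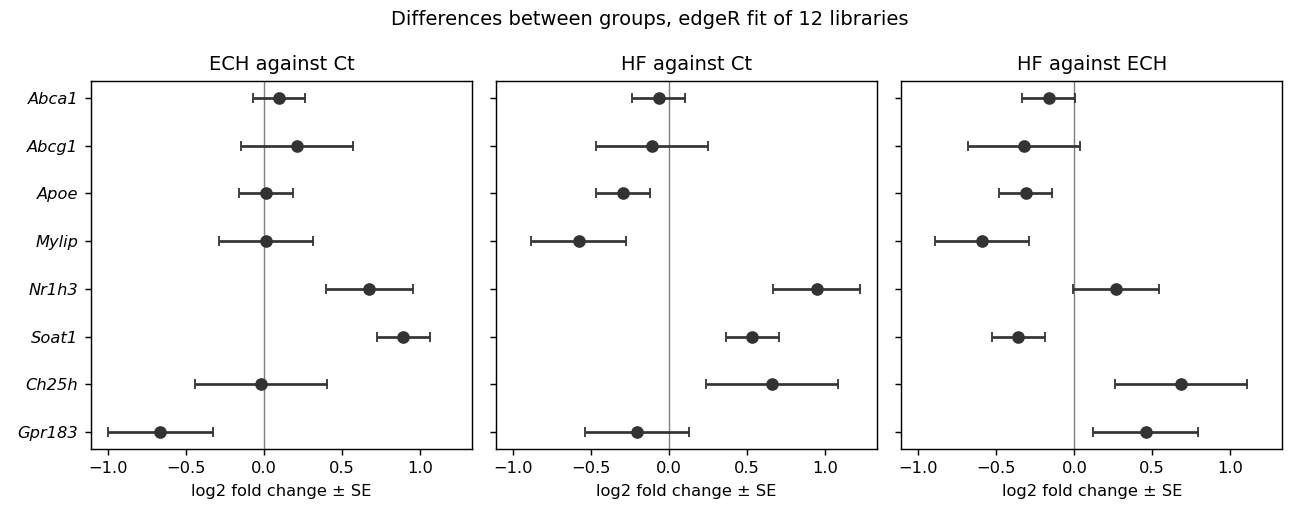
Log2 fold change of each of the 8 genes (points) with its standard error (bars) in ECH against Ct, HF against Ct and HF against ECH, from edgeR's fit of the 12 libraries. Soat1 is at 0.89 and 0.53 and Nr1h3 at 0.68 and 0.95 against Ct, and the widest bars are those of Ch25h (SE 0.42).

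Ch25h (ENSMUSG00000050370; chromosome 19, 34473778 to 34475164, minus strand), the gene of the 25-hydroxylase, was higher in all HF than in all Ct libraries and split the ECH group. Ch25h was at 70.3, 53.4, 74.4 and 67.5 CPM in Ct libraries and at 108, 98.0, 100.2 and 114 CPM in HF libraries. In ECH libraries 1 and 2 it was at 114 and 101 CPM, and in ECH libraries 3 and 4 at 22.9 and 24.8 CPM. The first pair of ECH libraries lay within the HF range and the second below all Ct libraries, a 4.48-fold difference between the pair means of 107 and 23.9 CPM. Group means were 66.4 ± 9.13 in Ct, 65.5 ± 48.3 in ECH and 105 ± 7.42 CPM in HF (SD, n = 4), and no ECH library lay near the ECH mean. For HF against Ct the log2 fold change was 0.66 (SE 0.42), with −0.02 (SE 0.42) for ECH against Ct and 0.68 (SE 0.42) for HF against ECH, with an edgeR FDR of 0.474, 0.994 and 0.737. The spread of the ECH libraries enters the SE of all 3 values, since the groups share 1 estimate of it.

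Without ECH libraries 3 and 4, Ch25h in HF against Ct was at 0.66 (SE 0.13), with an edgeR FDR of 0.0579. ECH against Ct was then at 0.68 (SE 0.16, edgeR FDR 0.278) and HF against ECH at −0.02 (SE 0.16). Within the library sets the values were 0.68 for ECH libraries 1 and 2 against Ct (edgeR FDR 0.760) and 2.14 for HF against ECH libraries 3 and 4 (edgeR FDR 0.00173). With the set as a covariate, HF against Ct became 2.83 (edgeR FDR 0.000294). The direction for HF against Ct was the same in all of its 23 alternatives, with a range of the adjusted p of 0.000294 to 0.667.

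Gpr183 (ENSMUSG00000051212; chromosome 14, 121952551 to 121965195, minus strand), the receptor gene, split the ECH libraries in the same order. It was at 251, 222, 223 and 216 CPM in Ct, at 187 and 249.3 CPM in ECH libraries 1 and 2, at 68.5 and 71.5 CPM in ECH libraries 3 and 4, and at 191, 225, 199.8 and 176 CPM in HF libraries. ECH libraries 3 and 4 were the lowest of all libraries for Gpr183 as for Ch25h, whereas the Ct and HF groups overlapped. The pair means were 218 and 70.0 CPM, a 3.12-fold difference. Over all libraries the log2 fold change of Gpr183 was −0.66 (SE 0.34) for ECH against Ct, −0.21 (SE 0.33) for HF against Ct and 0.46 (SE 0.34) for HF against ECH, with an edgeR FDR of 0.470, 0.814 and 0.794. Without ECH libraries 3 and 4 these values were −0.07 (SE 0.16), −0.20 (SE 0.13) and −0.13 (SE 0.16). Within set B, HF was above ECH libraries 3 and 4 by 1.502 (edgeR FDR 0.00302), and with the set as a covariate HF against Ct turned from −0.21 to 1.44 (edgeR FDR 0.00999). The gene lies within Ubac2 on the opposite strand and shares 0 exonic bases with it, and Ch25h shares 159 exonic bases with the opposite-strand transcript Gm26902, a symbol not among those counted.

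The ECH libraries 3 and 4 also held the highest levels of Soat1 among all libraries, 187 against 130 CPM in ECH libraries 1 and 2, and of Mertk, 455 against 178 CPM. Abcg1 was at 37.2 against 16.4 CPM in these pairs. Apoe, Nr1h3 and Mylip overlapped between the pairs, and Abca1 was at 268 against 229.5 CPM. The summed level of the 7 tissue dissociation genes was 10163 CPM in ECH library 3 and 16229 CPM in ECH library 4, against 24051 and 15826 CPM in ECH libraries 1 and 2. In Ct it was 23761 to 28797 CPM and in HF 11504 to 20792 CPM, with none of the 7 genes at 0. The 4 markers of resident Mφ, none of them at 0, summed to 3726 and 4353 CPM in ECH libraries 3 and 4 and to 3473 and 2500.04 CPM in ECH libraries 1 and 2, against 2405 to 3587 CPM in Ct and 2005 to 2804 CPM in HF. The higher sums in ECH libraries 3 and 4 came from Lyve1 and Cd163, whereas Timd4 (33.6 and 34.2 CPM, against 70.9 and 77.3 CPM in ECH libraries 1 and 2) and Folr2 (317 and 423 CPM, against 499 and 449.9 CPM) were lower there than in any other library. The 8 summed Mφ markers were at 22575 and 21916 CPM in ECH libraries 3 and 4, against 32138 and 29190 CPM in ECH libraries 1 and 2, and among them Adgre1 was at 755 and 579 CPM, below every other library (878 CPM or more). Flt3, 1 of 5 dendritic cell markers, was at 55.8 and 31.4 CPM in ECH libraries 3 and 4 and at most at 20.5 CPM elsewhere. Ccr7, of the same list, went the other way, at 17.02 and 20.73 CPM there and at 27.2 CPM or more elsewhere. The 5 summed to 86.6 and 71.3 CPM in ECH libraries 3 and 4 and to 67.8 and 71.0 CPM in ECH libraries 1 and 2. In Ct the sum was 60.8 to 174 CPM and in HF 48.5 to 69.1 CPM. Against Ct, 1 of the 5 was higher and 1 lower at an unadjusted p under 0.05 in edgeR's test, in ECH as in HF. Of the dendritic cell markers Clec9a was at 0 in Ct library 2 and HF library 1. The dissociation gene Atf3 was at 382 and 548 CPM in ECH libraries 3 and 4 and at 1008 CPM or more in every other library. The 5 cardiomyocyte markers summed to 81.8 and 94.2 CPM in ECH libraries 3 and 4 and to 50.2 and 41.4 CPM in ECH libraries 1 and 2. In Ct they summed to 35.6 to 117 CPM and in HF to 29.2 to 60.6 CPM. Of these Nppa was at 0 in Ct library 2 and HF library 1. The 5 B cell markers summed to 34.3 and 46.2 CPM in ECH libraries 3 and 4 and to 50.1 CPM or more elsewhere. The part of dissociation or of any of these markers in the split was not tested.

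Ch25h and Gpr183 were lowest in the same pair of libraries, and the 250 bases before each RefSeq start are shown for that reason, from RefSeq (GRCm38.p6, both minus strand, written 5′ to 3′ along the gene). Ch25h is at chr19:34475149-34475398 and Gpr183 at chr14:121965194-121965443. Capitals mark TGACGTCA, the cyclic AMP response element, and TATAAA.
Ch25h: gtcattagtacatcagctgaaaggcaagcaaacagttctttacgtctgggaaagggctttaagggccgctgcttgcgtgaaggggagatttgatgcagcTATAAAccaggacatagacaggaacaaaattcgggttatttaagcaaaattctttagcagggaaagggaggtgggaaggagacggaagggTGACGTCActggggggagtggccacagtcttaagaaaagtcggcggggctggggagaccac
Gpr183: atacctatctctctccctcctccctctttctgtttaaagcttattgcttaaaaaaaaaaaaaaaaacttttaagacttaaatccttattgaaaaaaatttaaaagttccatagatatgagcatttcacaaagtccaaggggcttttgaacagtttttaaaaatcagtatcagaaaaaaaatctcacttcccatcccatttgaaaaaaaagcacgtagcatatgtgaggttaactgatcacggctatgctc
TGACGTCA begins 61 bases before the start of Ch25h, and 1.79% of all promoter windows hold it on either strand. Its letters read the same on both strands. TATAAA lies 151 bases before the start. The window of Gpr183 held none of the motifs searched, which were these together with the direct repeat, GGGCGG and the AP-1 site TGACTCA (in 5.20% of all windows). TGACGTCA was in no window of the other members.

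**Figure D3:**
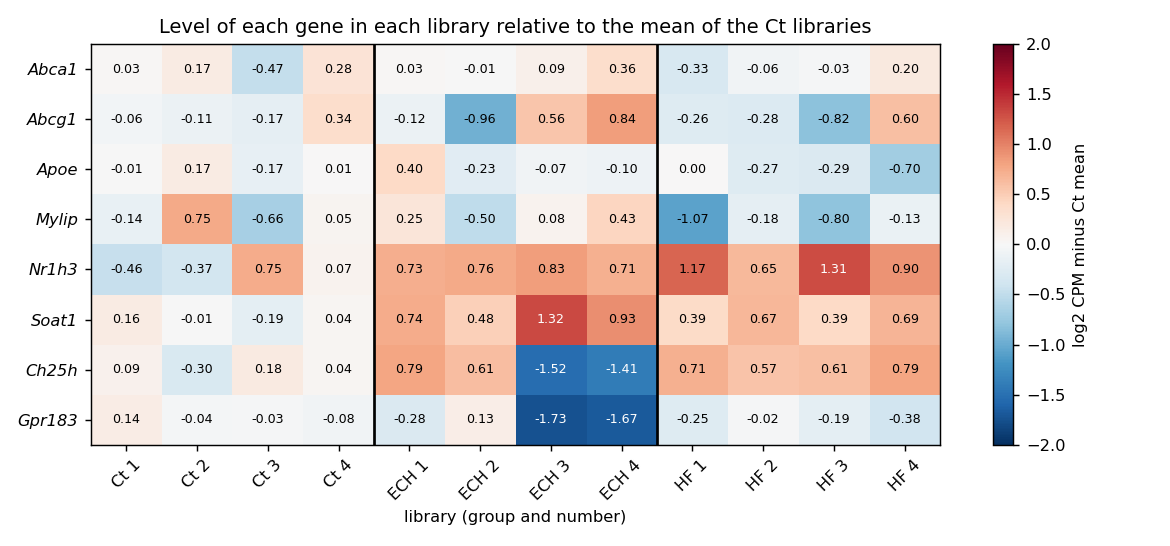
Log2 CPM of the 8 genes (rows) in each of the 12 libraries (columns) minus the mean of the Ct libraries, as colour and as number. Ch25h is at −1.52 and −1.41 and Gpr183 at −1.73 and −1.67 in ECH libraries 3 and 4, whereas Ch25h is between 0.57 and 0.79 in ECH libraries 1 and 2 and in HF libraries.

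Across the 12 libraries the levels of some pairs of the 8 genes moved together, which is given as a description, since the libraries share groups and sets and 28 pairs were computed. On the log2 CPM scale Pearson's r of Abca1 and Mylip, both LXR targets, was 0.74 (Spearman's rho 0.82), and 0.76 within groups. It was 0.60 without the 2 libraries farthest from the median of Abca1. For Abca1 and Abcg1, r was 0.54 (rho 0.80). For Ch25h and Gpr183, r was 0.82 but rho 0.08, and without ECH libraries 3 and 4 r was −0.55, so the relation rested on those libraries. Ch25h and Soat1 had an r of −0.41 over all libraries and of 0.85 without ECH libraries 3 and 4. Between Nr1h3 and the LXR target genes among the members r was −0.34 for Abca1, −0.17 for Abcg1, −0.39 for Apoe and −0.60 for Mylip.

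By the same measure over 12 libraries, the genes with the most similar profile to each member among all genes tested were named. For Gpr183 they were Mmp13 (r = 0.97), Bmp2 (0.95) and E130310I04Rik (0.95), and for Ch25h Gas6 (0.95), Fam3c (0.95) and Igfbp4 (0.94). Spearman's rho was lower, at 0.64, 0.84 and 0.86 for those of Gpr183 and at 0.68, 0.76 and 0.73 for those of Ch25h. Both members were lowest in ECH libraries 3 and 4, and these r were not computed without those libraries. For Soat1 they were Tlr13 (0.93), Stx3 (0.92) and Adam8 (0.92). Those of Nr1h3 were Cux1 (0.94), Vdac2 (0.93) and Lsr (0.93), with a rho of 0.86, 0.69 and 0.77. Abca1 was most like Tead2 (0.91), Txndc16 (0.91) and 2310068J16Rik (0.90), Abcg1 most like Pdcd2 (0.87), Fbxw5 (0.85) and Ccbe1 (0.84), Mylip most like Ubr1 (0.88), Thsd7a (0.87) and Ing3 (0.87), and Apoe most like Mir3960 (0.88), Prkd2 (0.85) and Hspb8 (0.82). The genes named for each member have the 3 highest r among 14608 genes over 12 libraries. Some of these genes were near the floor, with mean levels of 0.594 CPM for Tead2, 0.316 for 2310068J16Rik, 0.0826 for Ccbe1 and 0.156 for Mir3960. The mean was 0.451 CPM for Thsd7a, 0.691 for Hspb8 and 0.883 for E130310I04Rik. None of the 8 genes was among those most like another of them.

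Levels of different genes were compared per kilobase of exonic length (CPM per kb). In Ct the order was Apoe (10201), Gpr183 (79.1), Ch25h (47.9), Abca1 (22.4), Mylip (17.2), Soat1 (8.71), Abcg1 (3.17) and Nr1h3 (2.79 CPM per kb). Of the neighbours, Abca1 and Mylip overlapped (15.8 to 26.7 and 10.2 to 27.2), as did Abcg1 and Nr1h3 (2.78 to 3.98 and 1.92 to 4.43), and the others did not. In ECH, Nr1h3 (4.47) stood above Abcg1 (3.67) with overlapping ranges. In HF, Ch25h (75.7, range 70.6 to 82.4) stood above Gpr183 (68.6, range 60.9 to 78.0) and Soat1 (12.6) above Mylip (11.5), also with overlapping ranges. By group means Apoe was first in every group, and Abca1 stood below Gpr183 and Ch25h and above the remaining genes. In ECH the ranges of Gpr183 (23.7 to 86.4), Ch25h (16.5 to 81.9) and Abca1 (21.8 to 28.2 CPM per kb) overlapped.

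The other genes of sterol handling were taken from a list of 62 genes in 5 roles, of which 56 were tested and 0 were called in each comparison by edgeR's quasi-likelihood test. The 6 not tested were Abcg5, Abcg8, Abcg4, Apoa1, Cyp7b1 and Cyp7a1, among them the enzyme gene Cyp7b1, which makes the GPR183 ligand from 25-hydroxycholesterol and had 66 counts in all libraries together. An unadjusted p under 0.05 was reached by 13 of 56 (23.2%; 8 higher, 5 lower) in ECH against Ct, by 11 (19.6%; 5 higher, 6 lower) in HF against Ct, and by 9 (16.1%; 0 higher, 9 lower) in HF against ECH. Among all genes tested these shares were 11.9%, 16.1% and 7.98%. The median log2 fold change of the 56 genes was 0.08, −0.03 and −0.09. Other tools called more of them, DESeq2 1, 2 and 1 genes and the likelihood ratio test of edgeR likewise, and limma-voom 0, 1 and 0.

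LXR target genes other than the members went in both directions in ECH against Ct. There 7 of 16 (43.8%, beside 11.9% of all genes) reached an unadjusted p under 0.05, 4 higher and 3 lower. The median log2 fold change was 0.51, against 0.01 for all genes tested. In HF against Ct 5 of 16 did (31.2%, beside 16.1%), 2 higher and 3 lower, and the median was 0.05 against −0.01. In HF against ECH 3 of 16 did (18.8%, beside 7.98%), all lower, and the median was −0.43 against −0.02. These counts were not made without ECH libraries 3 and 4. Mertk, which encodes an engulfment receptor of Mφ and is also among the 8 Mφ marker genes, was at 121, 76.0, 95.04 and 177 CPM in Ct, 183, 174, 496 and 414 CPM in ECH and 108, 125, 91.6 and 144 CPM in HF libraries. ECH libraries 3 and 4 were far above all others, and ECH overlapped Ct. Its log2 fold change was 1.43 (SE 0.35, edgeR FDR 0.101) for ECH against Ct and −1.43 (SE 0.35, edgeR FDR 0.491) for HF against ECH. DESeq2 called Mertk in both comparisons (adjusted p 0.00196 and 0.00981). Without ECH libraries 3 and 4 the edgeR values were 0.59 and −0.60, and within set B the latter was −1.95 (edgeR FDR 0.00328).

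Scd1 and Apoc1 had their lowest means in HF. Scd1, a desaturase of fatty acids, was at 21.5, 53.4, 6.38 and 23.98 CPM in Ct, between 4.78 and 13.5 CPM in ECH and between 2.58 and 6.60 CPM in HF libraries. Ct library 3 lay within the HF range, the other Ct libraries above it. For Scd1 the log2 fold change in HF against Ct was −2.38 (SE 0.55, edgeR FDR 0.0811), without Ct library 3 it was −2.70 (edgeR FDR 0.0208), and without Ct library 2, the highest of all, it was −1.77 (edgeR FDR 0.132). DESeq2 called Scd1 and Apoc1 in HF against Ct (adjusted p 0.000474 and 0.000989). Apoc1, an apolipoprotein gene of the Apoe cluster, was at 1.69 to 5.28 CPM in Ct, 0.747 to 2.83 CPM in ECH and 0.342 to 0.572 CPM in HF libraries. HF lay below both other groups for Apoc1, with a log2 fold change of −2.53 (SE 0.62, edgeR FDR 0.0984) against Ct and −1.88 (SE 0.61, edgeR FDR 0.535) against ECH, at a mean of 51 counts per HF library.

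Among the named genes that release, oxidise or bind sterols, none passed edgeR's quasi-likelihood test, while DESeq2 gave an adjusted p of 0.0341 for Nceh1 in ECH against Ct and of 0.0198 for Cyp27a1 in HF against Ct, both under 2-fold. Nceh1 was at 56.6 to 99.9 CPM in Ct and 122 to 162 CPM in ECH libraries, which did not overlap, as for 7.97% of all genes. Its log2 fold change was 0.75 (SE 0.21, edgeR FDR 0.159). It was highest in ECH libraries 3 and 4, and without them the value was 0.52 (SE 0.25, edgeR FDR 0.74). Cyp27a1, the gene of the sterol 27-hydroxylase, was at 242 to 482 CPM in Ct, 238 to 275 CPM in ECH and 177 to 286 CPM in HF libraries. Ct library 3 was again within the range of the other groups. The log2 fold change of Cyp27a1 was −0.60 (SE 0.20, edgeR FDR 0.247) for ECH and −0.71 (SE 0.20, edgeR FDR 0.138) for HF against Ct, and without Ct library 3 these were −0.77 (edgeR FDR 0.0490) and −0.88 (edgeR FDR 0.0273). Osbpl9, of the oxysterol-binding family, was at 0.53 (SE 0.18, edgeR FDR 0.258) for ECH against Ct and −0.56 (SE 0.18, edgeR FDR 0.541) for HF against ECH on the log2 scale, and without ECH libraries 3 and 4 at 0.13 and −0.16. Within set B, Osbpl9 was at −0.86 for HF against ECH (edgeR FDR 0.00628). Hsd3b7, which acts on oxysterols in bile acid synthesis, was at 0.36 (SE 0.12, edgeR FDR 0.187) for HF against Ct. Rxrb, a partner receptor of LXR, was at −0.51 (SE 0.15, edgeR FDR 0.534) for HF against ECH, and at −0.32 without ECH libraries 3 and 4, where it was highest.

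**Figure D4:**
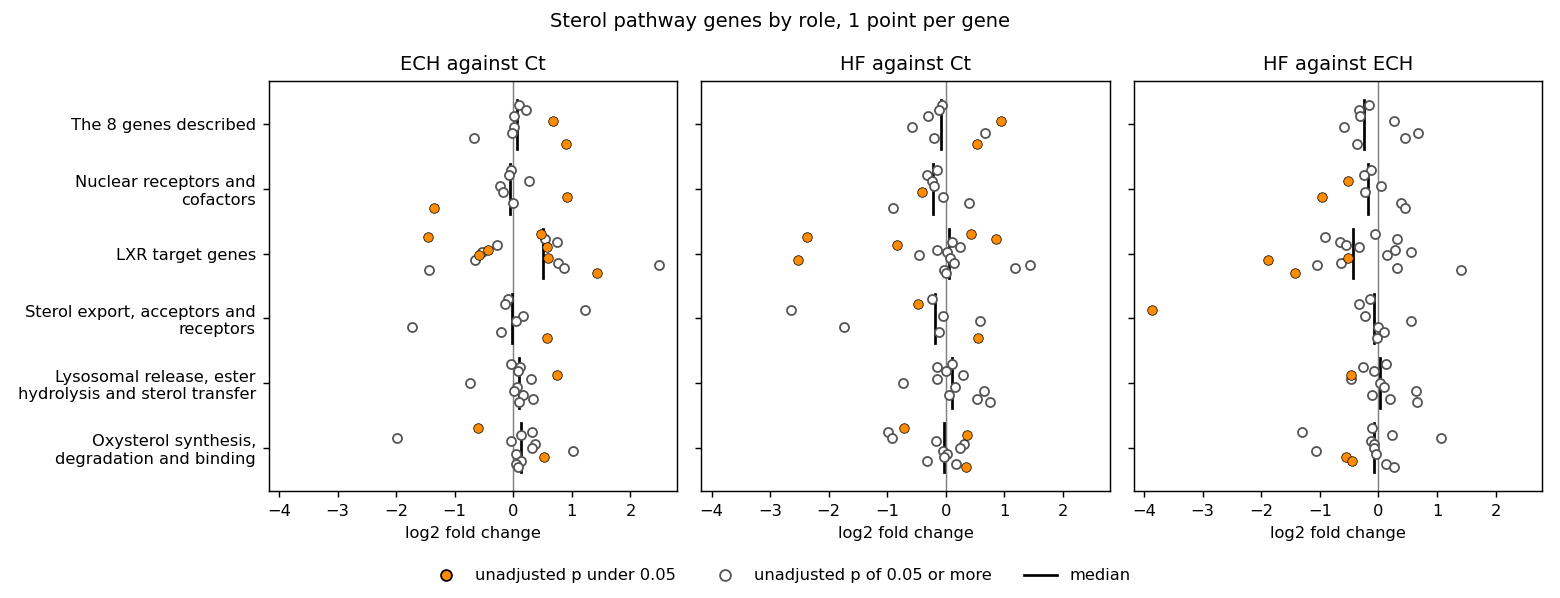
Log2 fold change (horizontal axes) of the 8 genes described and of the 56 other genes tested, 1 point per gene, in rows by role, with the median of each row as a black line. Filled points have an unadjusted p under 0.05 in edgeR's test. LXR target genes lie on either side of 0 in ECH against Ct (median 0.51), and all filled points of HF against ECH lie below 0.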

How the data were processed

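RNA of sorted cardiac Mφ was sequenced in 12 libraries, which were grouped as Ct, ECH or HF (4 each) from their labels. The raw counts per gene, as deposited by the authors, had been obtained after trimming (Trimmomatic), alignment to mm10 (TopHat2) and counting (featureCounts). The sources used here do not give versions, the annotation, the strand setting or the unit counted (reads or fragments). The libraries carry no molecular identifiers, and more genes held exactly 2 counts than 1 or 3 in every library. Per the paper, the libraries of a group came from different mice, which the labels do not name.

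Counts were scaled by TMM and tested with edgeR 4.0.16 (R 4.3.3) in 1 quasi-likelihood model of all libraries, after filterByExpr by group, with Benjamini-Hochberg adjustment over 14608 genes (FDR). Log2 CPM used a prior count of 2. The code was tested on simulated data. The members and lists were chosen with earlier results of these data known. Named were all members, the 4 pathway genes of smallest unadjusted p in each comparison with any called, and the 3 genes most like each member. Positions and exonic lengths came from GENCODE M21 (GRCm38), and promoters from RefSeq. Alternatives were RLE scaling, other filters, DESeq2 1.42.0, the likelihood ratio test, limma-voom (limma 3.58.1), fits of fewer groups, a replicate block, the inferred library sets, and libraries left out. Leaving out ECH libraries 3 and 4 was chosen after seeing the data. Figures were drawn with matplotlib 3.10.9.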

Additional observations from a re-analysis of the deposited data

How the results depend on the processing

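Each of the 24 differences of the 8 genes was recomputed under up to 24 alternatives, 23 of them planned. Of 568 values 529 had the same direction, 39 the other, and 20 moved by more than the spread between libraries. Members called numbered 0 in each comparison. In ECH against Ct they were 1 without the minimum fold, 2 at an unadjusted p under 0.05, and 0 to 1 with 1 library left out (1 without ECH library 2, Soat1). In HF against Ct they were 2 with the library set as a covariate (Ch25h and Gpr183), 2 at an unadjusted p under 0.05, and 0 to 1 with 1 library left out (1 without Ct library 3, Nr1h3). In HF against ECH they were 2 with the set as a covariate and 2 within the set, Ch25h and Gpr183 in each. Calls over all genes rose at these settings too. With the set as a covariate they numbered 208 of 14608 in HF against Ct and 272 in HF against ECH, within the set 370 of 14864 in HF against ECH, without Ct library 3 103 of 15009 in HF against Ct, and without ECH library 2 78 of 14955 in ECH against Ct, where all libraries gave 55, 0, 0, 55 and 52.

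Other pathway genes called numbered 0 in each comparison. In ECH against Ct they were 1 with DESeq2, 1 with edgeR's likelihood ratio test, 13 at an unadjusted p under 0.05 and 0 to 1 with 1 library left out. In HF against Ct they were 2 with DESeq2, 2 with edgeR's likelihood ratio test, 1 with limma-voom, 1 with the set as a covariate, 1 without Ct library 2 and HF library 1, 11 at an unadjusted p under 0.05 and 0 to 1 with 1 library left out. In HF against ECH they were 1 with DESeq2, 1 with edgeR's likelihood ratio test, 2 with the set as a covariate, 3 within the set and 9 at an unadjusted p under 0.05. The cause of these differences was not tested.

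With the replicate number as a block, 0 members and 0 other pathway genes were called in each comparison, and Soat1 in ECH against Ct was at 0.88 (edgeR FDR 0.101). The numbers did not pair the libraries: correlations of the deviations of same-numbered libraries lay between −0.0701 and 0.0687, with 0 of 12 over 0.1, and 2 of 12 libraries correlated best with their own number. Over all genes, calls under the block fell from 52 to 22 in ECH against Ct and from 55 to 18 in HF against Ct. DESeq2 called 248 and 333 genes there and 47 in HF against ECH, where edgeR's quasi-likelihood test called 0, and fits of only the groups compared called 8 and 41 against Ct. The lowest count of the 8 genes in a library was 442 (Nr1h3, Ct library 2).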
